A study of Mus musculus with 3 samples.

Results

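Rod phototransduction is shut off and adjusted by a set of proteins that act after the visual pigment has been activated, and transcripts of 4 of them, Sag, Pdc, Rcvrn and Rgs9, were measured in the neural retina of young wild-type mice. The members were chosen by gene symbol, as every probe set (the short probes that together report 1 transcript on an Affymetrix U74Av2 array) that GEO's platform annotation assigns to 1 of these 4 symbols alone. This gave 5 probe sets, 2 of them for Pdc, of 12422 non-control probe sets. The 3 samples were wild-type littermates of Rp1-/- mice on a mixed 129/SvEv and C57BL/6 background, untreated as far as the labels say and taken at postnatal day 10. Each was a pool of neural retinas from 3 to 4 mice, collected between 1 and 2 pm, and RNA of the whole neural retina was measured, not of sorted photoreceptors. All 3 pools form 1 group, so no comparison between conditions and no test was possible, and the question the design allows is how strongly each transcript registered and how far the pools differed. The titles of pools 2 and 3 contain the name rp1, that of pool 1 does not, and the grouping follows the descriptions, which call all the mice wild type. The numbers 1 to 3 only name the pools.

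As background, light-activated rhodopsin switches on transducin, a G protein, which activates a phosphodiesterase that lowers cGMP and closes cation channels of the outer segment. Shutoff needs both the pigment and the G protein to be turned off. Rhodopsin kinase phosphorylates the pigment and arrestin (Sag) then caps it, while Rgs9, bound to the beta subunit Gnb5 and a membrane anchor, speeds the GTP hydrolysis of transducin. Recoverin (Rcvrn), a calcium-binding protein, holds rhodopsin kinase back at high calcium, and phosducin (Pdc) binds the beta-gamma subunits of transducin. Rods are still lengthening their outer segments at this age.

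The RefSeq promoter windows of the members are shown here as a description of the sequence near an annotated start. The array gave bright signals for Sag and Pdc and a signal below background for Rgs9. No link between these signals and the windows was tested. A window spans 250 bases before to 50 after 1 annotated start site in the build GRCm38.p6, and 3 of the 4 members matched, Rcvrn being the exception. That of Sag lies at chr1:87803430-87803729 on the plus strand, that of Pdc at chr1:150319167-150319466 on the plus strand and that of Rgs9 at chr11:109298132-109298431 on the minus strand. Each is written 5′ to 3′ along its gene, with capitals marking every match, on either strand, to the motifs TAATCC or TAAGCC (cores of the sites bound by Crx and related homeodomain factors), to TGCTGA (the core of the site bound by Nrl and other Maf factors), CACGTG (an E-box) and TATAAA (the TATA box).
Sag: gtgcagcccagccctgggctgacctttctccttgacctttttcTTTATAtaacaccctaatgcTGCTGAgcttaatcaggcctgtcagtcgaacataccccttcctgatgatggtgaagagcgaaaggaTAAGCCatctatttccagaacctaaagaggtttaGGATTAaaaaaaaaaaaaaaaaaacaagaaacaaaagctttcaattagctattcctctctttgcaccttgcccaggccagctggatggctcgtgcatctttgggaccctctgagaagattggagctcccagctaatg
Pdc: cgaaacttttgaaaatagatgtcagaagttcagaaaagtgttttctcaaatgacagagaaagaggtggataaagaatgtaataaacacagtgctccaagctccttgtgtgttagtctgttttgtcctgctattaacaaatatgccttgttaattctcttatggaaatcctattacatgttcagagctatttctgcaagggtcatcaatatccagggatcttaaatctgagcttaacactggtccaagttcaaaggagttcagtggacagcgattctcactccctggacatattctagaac
Rgs9: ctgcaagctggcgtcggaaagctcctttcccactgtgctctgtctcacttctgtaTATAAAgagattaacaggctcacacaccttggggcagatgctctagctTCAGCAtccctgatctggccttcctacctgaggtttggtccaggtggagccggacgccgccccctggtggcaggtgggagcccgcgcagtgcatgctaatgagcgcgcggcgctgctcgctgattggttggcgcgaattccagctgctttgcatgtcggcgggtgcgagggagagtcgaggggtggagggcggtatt

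The Sag window held 4 matches. Read in the printed direction, the match to TAATCC began 87 bases upstream of the start, on the opposite strand. The match to TAAGCC began 121 bases upstream and that to TGCTGA 187 bases upstream, both on the strand of the gene. The match to TATAAA began 207 bases upstream, on the opposite strand. The Rgs9 window held 2, TGCTGA on the opposite strand 147 bases upstream and TATAAA 195 bases upstream. None of these matches overlapped another. The Pdc window held 0 matches, which says only that these letters are not in this stretch. Of 32851 RefSeq promoter windows of the same length, 7.06% held TAATCC, 9.48% held TAAGCC, 19.5% held TGCTGA, 7.15% held CACGTG and 13.6% held TATAAA. Such matches describe sequence, and no binding was measured.

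Signals are linear intensities in the deposited units. A signal was called above background when it exceeded the 90th percentile of 71 probe sets for 62 genes that belong to liver, pancreas, muscle, germ cells and other tissues, on the same array. This limit was 314.4, 327.3 and 298.8 in pools 1, 2 and 3. Of the 5 member probe sets, 3 exceeded it on all arrays, 1 each for Sag, Pdc and Rcvrn, and 2 on none, beside 36.4% of all non-control probe sets on all arrays and 49.2% on none. The trimmed means of the 3 arrays lay between 500.2 and 500.3 and the medians between 234.2 and 254.1. Retinal markers were present: all 6 measured genes of rod activation and all 6 measured outer segment genes exceeded the limit on every array, whereas of 6 measured genes of pigment epithelium 4 did so on none and 2, Dct and Pmel, on all. Lens markers were present too, with 8 of 11 measured genes above the limit on all arrays.

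Sag, rod arrestin, was among the members with a bright signal and was moderately variable. Pools 1, 2 and 3 gave signals of 22066, 24854 and 34554, which is 70.2, 75.9 and 115.6 times the background limit of the respective array. Pools 1 and 2 lay close together and pool 3 stood above both. The mean was 27158 ± 6555 (SD, n = 3), a coefficient of variation of 24.1%, and the range from lowest to highest was 1.57-fold. A larger range was found for 35.7% of the 5399 probe sets above background on average, so the spread of Sag was larger than that of most of them. The difference between pools 1 and 2 was 0.17 on the log2 scale and that between pools 1 and 3 was 0.65, with pool 3 higher. Under quantile normalization, which forces the same distribution on every array, pool 2 rather than pool 3 read highest.

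Pdc, phosducin, was the member with the closest pools. On its bright probe set, pools 1, 2 and 3 gave signals of 21088, 23619 and 21313, a mean of 22006 ± 1401 (SD, n = 3) with a coefficient of variation of 6.37%. No pool stood apart, and pools 1 and 3 differed by 0.015 on the log2 scale. The range was 1.12-fold, and 92.5% of those 5399 probe sets spread more. Quantile normalization widened it to 1.77-fold, with pool 2 highest, and the closeness of the pools therefore holds for the deposited scale and for scaling to the median, where the range was 1.06-fold.

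A second Pdc probe set was not above background in any pool, though it passed on all arrays with a limit at the 75th percentile. Its name ends in _r_at, which marks a probe set for which some of the maker's probe selection rules were dropped. Pools 1, 2 and 3 gave 228.0, 230.6 and 219.1, or 0.73, 0.70 and 0.73 of the limit. The readings of a gene's probe sets therefore differed widely here, one far above the limit and the other below it on every array. The stretch of the transcript that each set matches was not known here. The narrow range of the dim set, 1.05-fold, describes a signal at background and is not evidence on the transcript.

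Rcvrn, recoverin, had the widest range of the 3 genes measured above background. Pools 1, 2 and 3 gave signals of 3146, 2429 and 8726, a mean of 4767 ± 3447 (SD, n = 3). Pools 1 and 2 were the nearest pair and pool 3 stood far above them. The signals were at least 7.42 times the background limit of their array, and 29.2 times in pool 3. Pool 3 was 2.77-fold above pool 1 and 3.59-fold above pool 2, and the coefficient of variation was 72.3%. Without pool 3 the log2 range fell from 1.84 to 0.37. Its order of pools, 2 lowest and 3 highest, held under median scaling (3.75-fold), quantile normalization (3.31-fold) and quantile normalization without lens and blood probe sets (3.38-fold).

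The probe set of Rgs9, the GTPase-accelerating protein of the shutoff complex, was not above background in any pool. Pools 1, 2 and 3 gave 118.7, 175.7 and 66.5, or 0.38, 0.54 and 0.22 of the limit. All 3 lay below the limit, so their order is not read. No fold is drawn between signals that all lie below the limit, and the readings do not show that the transcript was absent. Rgs9 is spliced into a retinal and a longer brain form, and which of them these probes match was not known here.

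**Figure D1:**
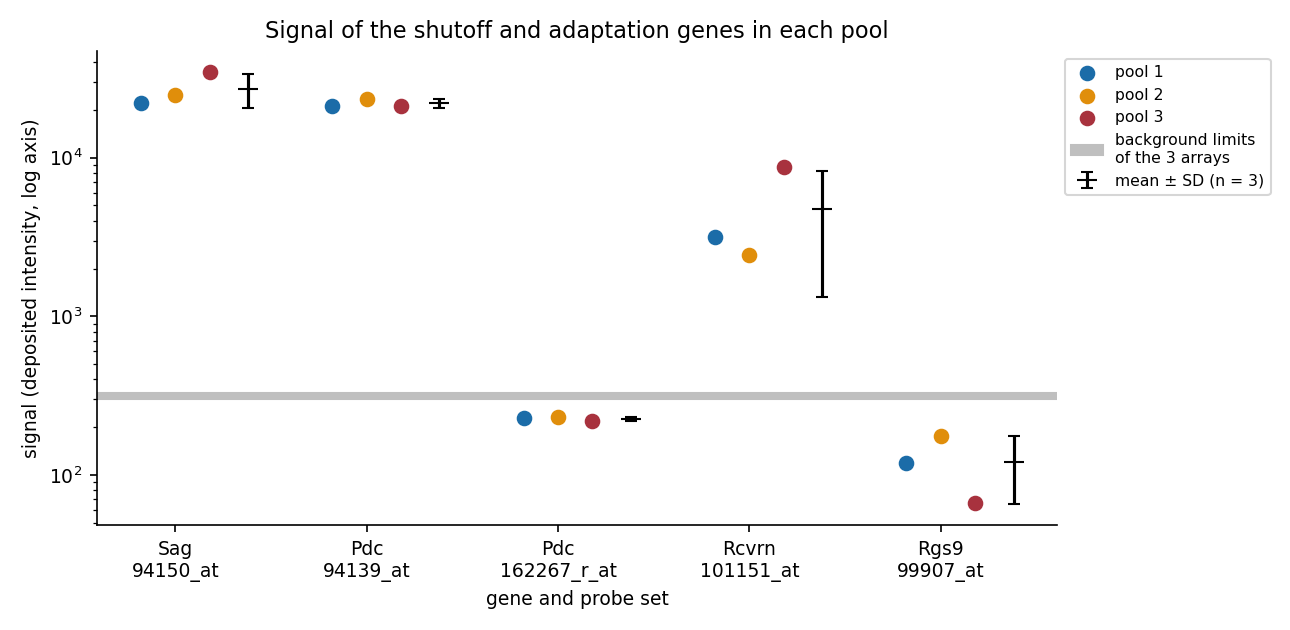
Signal of the 5 member probe sets (horizontal) in each of the 3 pools on a log axis in deposited intensity units (vertical), with the mean and SD over the pools (n = 3) and a grey band from the lowest to the highest background limit of the 3 arrays. Sag and the bright Pdc set lie at 21088 or higher in every pool, Rcvrn spreads from 2429 to 8726, and the second Pdc set and Rgs9 lie below the band in every pool.

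Of the 3 genes above background, 1, Rcvrn, had a range over 2-fold, whereas 13.1% of the 5399 probe sets above background on average did. A larger range than that of Rcvrn was found for 100 of these probe sets, 1.85%. Bright probe sets vary less between arrays than dim ones, and of the 759 with a mean signal over 2000, among which all 3 genes fall, 8.30% had a range over 2-fold. Within those bright sets 25.7% had a larger range than Sag, 90.1% than Pdc and 2.37% than Rcvrn. The median range of the 5399 probe sets was 1.43-fold, so Sag lay just above it, Pdc below it and Rcvrn well above it. With 3 pools, the SD and range of any gene are themselves imprecise.

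**Figure D2:**
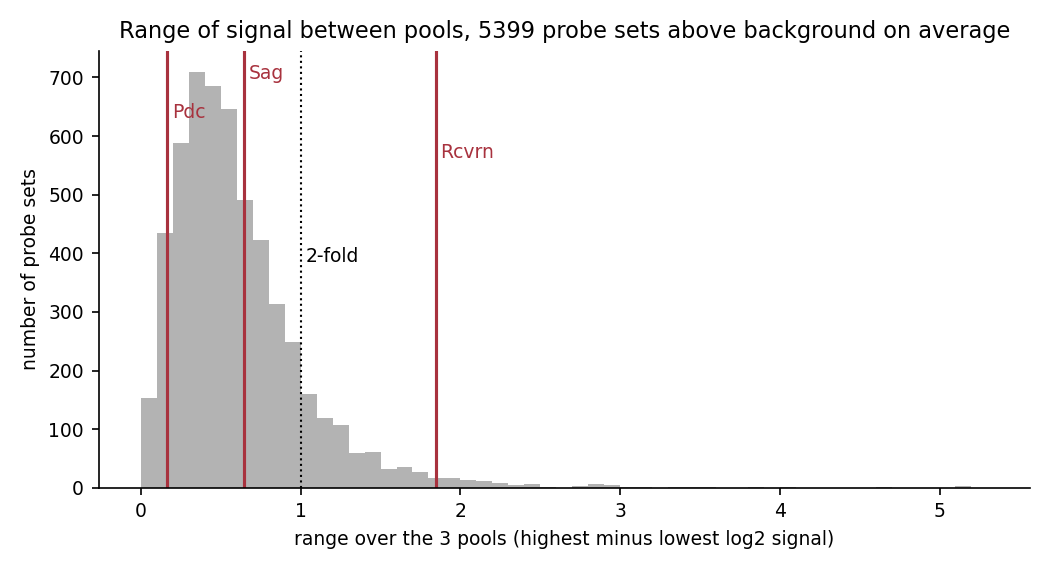
Histogram of the range over the 3 pools (highest minus lowest log2 signal, horizontal) for the 5399 probe sets above background on average (vertical, number of probe sets), with red lines at the 3 members above background and a dotted line at 2-fold. Pdc lies in the left tail at 0.16, Sag at 0.65 near the bulk and Rcvrn at 1.84 in the right tail.

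Ratios between members on the same array do not depend on how whole arrays are scaled by a factor, and they show that the members varied unequally. Probe sets differ in how brightly they report a transcript, so a ratio is read here only for how it varied between pools. The ratio of Sag to Pdc was 1.05 in pool 1, 1.05 in pool 2 and 1.62 in pool 3. Pools 1 and 2 had the same ratio to 2 decimals, and pool 3 differed from both. The ratio of Pdc to Rcvrn was 6.70, 9.72 and 2.44 in pools 1, 2 and 3, a 3.98-fold span. That of Sag to Rcvrn was 7.02, 10.2 and 3.96, a 2.58-fold span, and both were lowest in pool 3. As tissue was measured in bulk, fewer photoreceptors and less RNA per photoreceptor cannot be told apart in the signal of a single gene. What made the ratios differ between pools was not tested.

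The scaling of the arrays mattered for the bright members and not for Rcvrn. With quantile normalization, Sag read 34412 in pool 2 and Pdc read 32310 there, against 24854 and 23619 as deposited. Array 2 had the lowest top signal as deposited, 43865, against 66004 on array 1 and 79323 on array 3. When the 27 probe sets of crystallin, other lens and red blood cell genes were left out before quantile normalization, Sag read 21760 in pool 1 and 30961 in both other pools, and the range of Pdc became 1.35-fold in place of 1.77-fold.

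**Figure D3:**
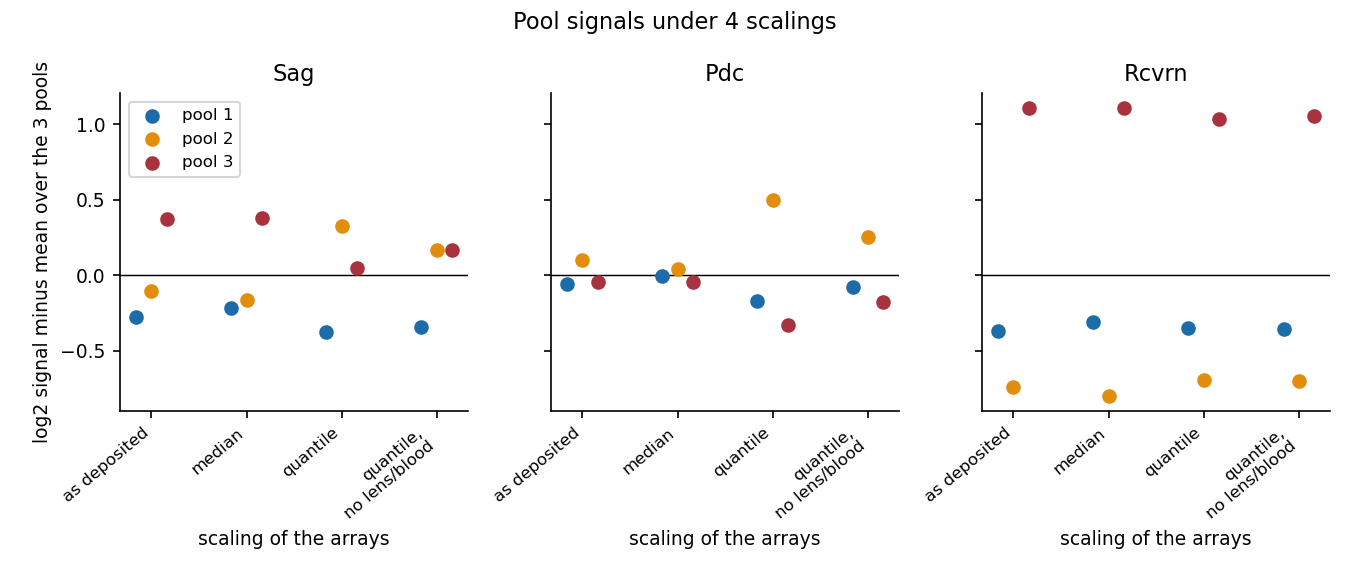
Log2 signal minus the mean over the 3 pools (vertical) of Sag, Pdc (its bright set) and Rcvrn under 4 scalings of the arrays (horizontal), 1 point for each pool. For Rcvrn pool 3 is highest and pool 2 lowest under all 4, whereas for Sag the pool that reads highest differs between scalings and for Pdc the spread of the pools widens under quantile normalization.

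Other genes listed under shutoff and adaptation were measured in part. A place on this list is not evidence that a gene, such as Rgs16, acts in rod shutoff. Of 14 genes listed as partners of the members, 5 had a named probe set, and the other 9, among them Grk1, Rgs9bp and Guca1b, were not analysed here. The signal exceeded background on all arrays for 3 of the 5. Gnb5, the beta subunit that binds Rgs9 and its relatives, gave 892.7, 831.0 and 1702 in pools 1, 2 and 3, a 2.05-fold range with the same order of pools as Rcvrn, which became 1.07-fold without pool 3. Guca1a, a calcium sensor that activates guanylate cyclase when calcium falls, read 971.3, 978.0 and 1594 in pools 1, 2 and 3, a 1.64-fold range with pool 3 highest. Rgs16, a G protein regulator also found in other cells, went the other way, with 851.4, 1148 and 587.5 and pool 3 lowest. Its second probe set was not above background in any pool. Gucy2e, a retinal guanylate cyclase, read 251.4 in pool 1, below the limit, and 382.6 and 372.5 in pools 2 and 3, above it. The single named set of Calm2, a calmodulin gene, was not above background.

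The genes of the activating steps, which share the rod with the members, were all above background and all read highest in pool 3, as deposited and under the 3 other scalings. Of 9 listed, 6 were measured, and 4 of the 6 had a range over 2-fold, with a median range of 2.15-fold. Gnat1, the transducin alpha subunit that Rgs9 acts on, had the widest at 10.8-fold, and Pde6b, a catalytic phosphodiesterase subunit, the narrowest at 1.28-fold. Gnb1, the transducin beta subunit that phosducin binds, had a 3.78-fold range on its brightest set. On its other sets, also above background on all arrays, it spanned 3.76-fold and 2.01-fold. Since all 6 read highest in pool 3, leaving that pool out narrows every range. Without pool 3, 0 of the 6 exceeded 2-fold on their brightest sets, the median range was 1.10-fold, and Gnat1 spanned 1.09-fold and Gnb1 1.94-fold. Another Gnb1 set spanned 2.18-fold between pools 1 and 2. Without pool 1, 1 of the 6 exceeded 2-fold, and without pool 2, 4 did. Cnga1 spanned 1.21-fold without pool 1 and 1.79-fold without pool 3. Of all probe sets above background on average over the remaining pools, 7.74%, 5.68% and 5.50% exceeded 2-fold without pools 1, 2 and 3. Over all 3 pools the range of Rcvrn lay within those of the 6 genes. That of Pdc, at 1.12-fold, lay below the narrowest as deposited but not under quantile normalization, where Pdc spanned 1.77-fold and Pde6b 1.20-fold. Among all 5399 probe sets above background on average, pool 3 was highest for 32.0%, and among the 759 bright ones for 43.7%.

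**Figure D4:**
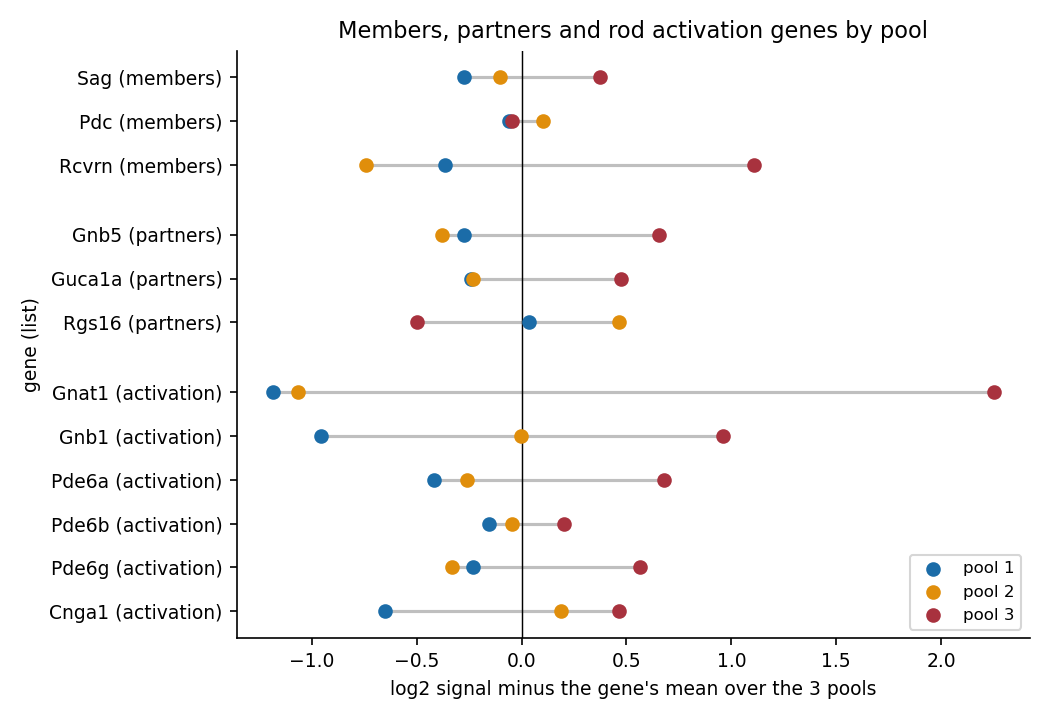
Log2 signal minus the gene's own mean over the 3 pools (horizontal) for the members, the partners and the rod activation genes above background on all arrays (vertical), 1 coloured point for each pool. Pool 3 is the highest point for every gene shown except Pdc and Rgs16 (and, under quantile normalization, Sag), and Gnat1 has the widest span.

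Relatives of the members within their protein families gave a mixed picture. In the RGS family 13 of 19 listed genes were measured and 6 were above background on all arrays. Among the relatives that share the Gnb5 partner with Rgs9, Rgs7 read 477.8, 519.1 and 520.8 and Rgs11 read 402.9, 504.1 and 685.3 in pools 1, 2 and 3, all above the limit. Rgs6, like Rgs9, was not above background in any pool. Rgs7 was the closest of these between pools, with a range of 1.09-fold. The second set of Rgs11, also of the _r_at kind, read between 17.8 and 19.2 and was not above background.

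In the neuronal calcium sensor family, to which recoverin belongs, 7 of 13 listed genes were measured and 6 were above background on all arrays. Rcvrn was the only one of these 6 with a range over 2-fold. Hpca, hippocalcin, read 1222, 736.9 and 1009 in pools 1, 2 and 3, and Vsnl1, a visinin-like protein, read 1143, 862.9 and 906.1. Both were highest in pool 1, not in pool 3. Hpcal1 read 1495, 1594 and 2167, with pool 3 highest. The name of its probe set ends in _f_at, a sign that related genes may be matched too.

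Of the arrestin family 2 of 4 listed genes were measured, Sag and Arrb1, a beta-arrestin of many cell types, with signals of 571.7, 319.4 and 641.1, the second of them below the limit. Of the phosducin family Pdc and Pdcl3 were measured. Pdcl3 read 964.7, 1252 and 863.4 in pools 1, 2 and 3. Pool 2 was highest for Pdcl3 as it was for Pdc, with a range of 1.45-fold.

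Signals from other cell types and from RNA quality were set beside the order of the pools. Lens genes had the same order as Rcvrn, since on their brightest sets pool 3 was highest and pool 2 lowest for all 11 measured. The summed signal of these sets was 226816, 36700 and 423620 in pools 1, 2 and 3. All 11 were above the limit in pools 1 and 3 and 8 in pool 2, and no lens probe set was at 0. Some dimmer lens sets had other orders. Among them, a Crybb2 set of the _r_at kind, above the limit on all arrays, read 1202.5, 1332.7 and 929.8. The Actb control probes gave a 3′ signal 1.20, 1.44 and 1.69 times the 5′ signal, again with pool 3 highest, and the Gapdh controls 0.95, 0.88 and 0.93 times. Red blood cell genes summed to 22090, 4986 and 15245, lowest in pool 2 and highest in pool 1. Most of this was Hba-a1, at 19101, 3410 and 12646. Of the 6 measured, 2 were above the limit on all arrays, both with that order, and 4 on none. Müller glia genes summed to 13958, 13288 and 19773, with 5 of 7 above the limit on all arrays, and bipolar and amacrine genes to 12755, 12735 and 18510, with 7 of 8, both highest in pool 3. Of the genes above the limit on all arrays, 4 of 5 glia genes and 5 of 7 bipolar and amacrine genes were highest in pool 3. In each of these lists 1 was lowest there. For glia this was Glul on its brightest set, of the _r_at kind, which read 1040, 1492 and 785.0 in pools 1, 2 and 3. Its other set, also above the limit on all arrays, read 371.1, 449.5 and 1003, with pool 3 highest. The part of other cell types and of RNA quality in the spread of Rcvrn and Sag was not tested. Photoreceptor genes were mixed. Of 6 outer segment genes above background on all arrays, 5 were highest in pool 3 (4 under quantile normalization) and 1 was lowest there. Pool 2 was lowest for 4 of the 6 as deposited. Of 4 such cone genes, 1 was highest in pool 3 and 1 lowest there. The photoreceptor transcription factors did not share the order: of 4 above background on all arrays, 0 were highest in pool 3 and 3 were lowest there (2 under median scaling). Their ranges ran from 1.11-fold for Mef2d to 1.79-fold for Neurod1. Rcvrn's order of pools was shared by 18.1% of the 5399 probe sets above background on average and by 26.6% of the bright ones.

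The genes whose pattern over the 3 pools was most like that of each member were found by the root mean square difference of log2 signal centred on each gene's mean, over 3647 other named genes above background on all arrays. For Rcvrn these were Aldoc, an aldolase of glycolysis, which read 1445, 1205 and 3800 in pools 1, 2 and 3, Col4a1, a basement membrane collagen, and Gnaz, a G protein alpha subunit, at differences of 0.077, 0.13 and 0.18. Aldoc was the only gene within 0.1 of Rcvrn. For Sag they were Iars2, Map4 and Limk2, at 0.0055, 0.010 and 0.013, and 149 genes lay within 0.1. For Pdc they were Thumpd3, Satb1 and Gpn1, at 0.0045, 0.0064 and 0.0072, and 533 lay within 0.1. Between the members themselves the difference was 0.30 for Sag and Pdc, 0.56 for Sag and Rcvrn and 0.84 for Pdc and Rcvrn. With 3 pools that share each array's preparation, many genes match a flat or modestly varying profile such as that of Pdc or Sag closely, and the likeness is a description of these arrays.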

How the data were processed

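The authors deposited 1 linear intensity per probe set for 12488 probe sets on each of 3 arrays. The sources used here do not state how the authors condensed and scaled the probe readings, nor a genome build. The mean after trimming 2% at each end agreed within 5%, so by rule the deposited values were used as they stand. These means were nearly identical, between 500.2 and 500.3, as they would be if the arrays had been scaled to a common level before deposit. Their agreement therefore does not show that the arrays are comparable. Symbols came from GEO's platform annotation, old but updated through Entrez numbers for 10839 of 10855 probe sets with 1 symbol. Of the rest, 396 had several symbols and 1237 none. The 66 controls, counted among the 12488, were left out of the background limits, shares and median scaling. They were kept in the trimmed mean, median and top signal of each array and in quantile normalization. Values below 1 were set to 1 before log2. The spread is the SD and range over pools, computed with Python 3.11.15, numpy 2.4.6 and pandas 2.3.3, and the range and likeness calculations were tested on simulated data. The number of arrays limits the precision.

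With 1 group no test was made. Whether the pools share animals, labelling or scanning is not stated, so the spread between them may be technical in part. A gene with several probe sets is represented by the brightest, and other sets are described only for Pdc, Gnb1, Rgs11, Rgs16, Glul and Crybb2. By rule, the text names all members and the 3 genes most like each, and draws its other examples from the measured genes of the partner, activation, family and marker lists. The members and lists were chosen with earlier results of these data known. The alternatives were other scalings, other background percentiles (75 and 95), adding 50 before log2, no filter on dim probe sets, averaging probe sets, and leaving out each pool. The minimum mean signal of 2000 and the quantile normalization without lens and blood probe sets were chosen after seeing the data.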

Additional observations from a re-analysis of the deposited data

How the results depend on the processing

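The range of each member over the pools is a value with no test. As log2 ranges, leaving out each pool in turn gave 0.17 to 0.65 for Sag, 0.015 to 0.16 for the bright Pdc set, 0.016 to 0.074 for the second Pdc set, 0.37 to 1.84 for Rcvrn and 0.57 to 1.40 for Rgs9. The lowest values came without pool 3, except for the bright Pdc set, where it came without pool 2. A range over 2 pools cannot exceed that over 3. Those of Rgs9 and the second Pdc set describe signals below background and are no measure of the transcript. Quantile normalization moved the range of the bright Pdc set from 0.16 to 0.82 and that of the second set from 0.074 to 0.13. Without lens and blood probe sets, it gave 0.43 and 0.13. Median scaling shifted the array medians by at most 0.059 on the log2 scale and moved no range by more than the SD between pools, nor did adding 50 before log2 or averaging the Pdc sets. The count of member probe sets above background was 3 with the 95th percentile and with both other scalings, and 4 with the 75th. The set added at the 75th was the second Pdc set, which read higher than Rgs9 on every array. Rgs9 did not pass on all arrays at any of these percentiles. The share of probe sets with a range over 2-fold was 13.1%, against 41.5% with no filter on dim sets, 8.30% above a mean signal of 2000, and 5.50% to 7.74% when each pool was left out. The cause of these differences was not tested. No paired analysis was possible because there is 1 group. The likeness of other genes to the members was not recomputed under other scalings.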
